A study of Rattus norvegicus with 38 samples.

Results

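Fos, Junb, Maff, Klf6 and Dusp1 are early response genes, switched on quickly when a cell meets stress, growth factors or strong activity. Nfe2l2, a gene of the oxidative stress response, is grouped with them here. The regions described here are the H3K27ac peaks assigned to these 6 genes, chosen by the authors' differential acetylation calls, rotenone against vehicle, and matched by position to the deposited peak lists. Of 151509 peaks in all, 27 were found in this way, 10 of 70744 in the substantia nigra (SN) and 17 of 80765 in the motor cortex. All 10 SN peaks were listed as hyperacetylated, against 1.24% of the whole SN list, and none as hypoacetylated, against 1.72%. In the motor cortex, 10 were listed as hyperacetylated, against 4.97% of that list, and 7 as hypoacetylated, against 6.45%. The percentages are shares of the deposited lists, and since the SN list is longer than the set of SN peaks the study describes, the SN shares among tested peaks would be higher. A listing in either direction is what placed the peaks in this set, so the shares are a background and not a comparison. Among all listed peaks, 874 SN peaks were hyperacetylated and 1216 hypoacetylated, and 4015 and 5212 in the motor cortex. Nothing is read from the directions of the 27 peaks beyond where they lie. Every gene had at least 1 listed SN peak, and Junb alone had no listed peak in the motor cortex.

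H3K27ac ChIP-seq, which marks active promoters and enhancers, was performed on tissue of 9 male Lewis rats aged 8 to 10 months. Of these, 5 received rotenone, a mitochondrial complex I inhibitor, at 2.8 mg/kg by daily intraperitoneal injection for 21 days and 4 received vehicle on the same schedule, and tissue was taken 24 h after the last dose. The methods also mention dosing until a behavioural endpoint. The sample labels call the control treatment PBS whereas the protocol names Miglyol, and they give the SN tissue as ventral midbrain and the other tissue as cortex. Both input libraries are labelled as cortex. The bulk tissue mixes neurons and glia, so that fewer cells of a type and less acetylation per cell cannot be told apart, and the cell type markers were not checked because no annotation of the peaks' build was used here. Each deposited list pools the rats of both treatments and holds positions only, so no value below has a replicate or an error and no test was possible.

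AP-1 is a dimer of Fos and Jun family proteins that binds DNA at enhancers and promoters of inducible genes. Fos and Junb encode subunits of it. Maff encodes a small Maf protein, a bZIP partner without a transactivation domain of its own, and Nfe2l2 encodes NRF2, which pairs with small Maf proteins at antioxidant response elements and drives genes of glutathione and redox metabolism. Klf6 encodes a zinc finger factor induced by injury. Dusp1 encodes a nuclear phosphatase that switches off the p38 and JNK kinases, and it is also a classic glucocorticoid-induced gene. In brain, Fos and its relatives serve as markers of recent neuronal activity.

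The motor cortex list had the wider peaks, with a median of 1245 bp against 994 bp in the SN, and it covered 1.39 times the length. At least 1 bp was shared with a peak of the other region by 65.3% of SN peaks and 55.1% of motor cortex peaks. The study describes higher read coverage in the motor cortex, and the part of depth in any difference between the lists below was not tested. Positions are given in mRatBN7.2, and a partner means a peak of the other region that shares at least 1 bp.

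Promoter sequences of RefSeq were found for 5 of the 6 genes, all but Fos, as 250 bases before and 50 after the start site in the build GRCr8, which is not the build of the peaks. The promoters of Junb, Maff and Klf6 are shown because an SN peak at each was listed as hyperacetylated, and that of Dusp1 because it shares motifs with Maff although its promoter peak was listed in neither region. They are printed on the gene's own strand, and capitals mark matches to the 7 motifs searched on both strands: the cyclic AMP response element or CRE, TGACGTCA, the AP-1 site, TGACTCA, the antioxidant response element, TGACNNNGC, the E-box read as CACGTG, the TATA box read as TATAAA, the box named for its letters CCAAT, and the GC box, GGGCGG. Where matches touch or overlap, the capitals run on.
Junb, GRCr8 chr19:40080876-40081175, plus strand: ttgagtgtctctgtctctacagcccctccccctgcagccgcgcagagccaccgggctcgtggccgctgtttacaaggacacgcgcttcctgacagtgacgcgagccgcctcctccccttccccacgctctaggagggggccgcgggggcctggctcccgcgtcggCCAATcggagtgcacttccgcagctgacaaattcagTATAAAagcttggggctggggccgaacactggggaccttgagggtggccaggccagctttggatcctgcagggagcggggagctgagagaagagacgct
Maff, GRCr8 chr7:112792537-112792836, plus strand: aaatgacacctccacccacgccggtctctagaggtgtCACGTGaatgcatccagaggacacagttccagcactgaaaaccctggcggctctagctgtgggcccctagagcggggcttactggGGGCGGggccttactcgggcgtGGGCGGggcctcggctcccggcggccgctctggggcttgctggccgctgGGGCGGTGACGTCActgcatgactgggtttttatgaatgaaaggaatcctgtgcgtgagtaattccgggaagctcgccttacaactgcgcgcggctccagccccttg
Klf6, GRCr8 chr17:69458429-69458728, minus strand: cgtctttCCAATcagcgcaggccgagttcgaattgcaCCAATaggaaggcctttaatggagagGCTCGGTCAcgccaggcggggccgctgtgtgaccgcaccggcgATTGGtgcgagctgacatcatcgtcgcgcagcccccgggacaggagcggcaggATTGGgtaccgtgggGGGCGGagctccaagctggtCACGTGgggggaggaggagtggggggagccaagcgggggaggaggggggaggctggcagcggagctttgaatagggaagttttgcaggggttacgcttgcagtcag
Dusp1, GRCr8 chr10:17184603-17184902, plus strand: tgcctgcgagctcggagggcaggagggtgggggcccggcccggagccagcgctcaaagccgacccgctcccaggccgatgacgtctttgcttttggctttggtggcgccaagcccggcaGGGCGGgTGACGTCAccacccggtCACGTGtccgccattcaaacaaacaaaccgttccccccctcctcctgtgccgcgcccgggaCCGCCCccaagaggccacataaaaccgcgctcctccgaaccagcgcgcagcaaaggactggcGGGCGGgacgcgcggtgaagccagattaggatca

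The full CRE, the palindrome bound by CREB and ATF proteins, stood in the promoters of Maff and Dusp1, at bases -51 to -44 and -124 to -117 from the start site. Of all 33469 promoters searched, 1.83% held it. CACGTG was found in Maff, Klf6 and Dusp1, and in 6.42% of all promoters. In Dusp1 it began 17 bases after the start of the CRE, whereas in Maff it lay further upstream, at -213 to -208. A TATA match was present in Junb, at -49 to -44, and in none of the other 4, against 14.2% of all promoters. Klf6 held 4 CCAAT matches, of which 2 were on the reverse strand, and Junb held 1, and 37.5% of all promoters had at least 1. GC boxes were found in every promoter but that of Junb, with 6 in Nfe2l2, of which some overlap, 3 each in Maff and Dusp1 and 1 in Klf6, against a share of 33.1% over all promoters. The antioxidant element matched once in Klf6, at -187 to -179, and once in Nfe2l2, after the start site at 39 to 47, and in 12.1% of all promoters. None of the 5 windows held an AP-1 match, and 4.63% of all promoters did. The GC content of the 5 windows ran from 63.3% in Maff to 68% in Nfe2l2 and Dusp1, above the median of 51.7% over all promoters. A match describes letters only, not binding.

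Fos, the inducible AP-1 subunit, had 8 listed peaks on chromosome 6, and its promoter was listed in opposite directions in the 2 regions. The SN promoter peak, chr6:105118714-105122480, was 3767 bp wide, wider than 93.6% of SN peaks, and was listed as hyperacetylated. It lay wholly inside the motor cortex promoter peak, chr6:105118637-105123078, of 4442 bp, which was listed as hypoacetylated. The SN peak filled 84.8% of the cortical one, so the 2 calls concern nearly the same stretch of DNA.

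Upstream of Fos, the motor cortex had 2 further peaks listed as hypoacetylated and the SN had none listed. The cortical peaks, chr6:105082308-105084990 of 2683 bp and chr6:105101779-105103935 of 2157 bp, lay 36.9 and 17.7 kb before the centre of the SN promoter peak. Each had an SN partner of similar width, 2907 and 2002 bp, that was not listed. A cortical peak 88.7 kb upstream, assigned to the neighbouring gene Tmed10, was also listed as hypoacetylated. The 4 cortical peaks from there to the Fos promoter were thus all listed in this direction, and at all 4 an SN peak was present.

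Downstream of Fos, the listed peaks were hyperacetylated in both regions. The SN peak chr6:105146470-105148262, 26.8 kb from the promoter peak, was 1793 bp wide and enclosed a narrower cortical peak of 752 bp that was not listed. Further on, the SN peak chr6:105195082-105196138 and the motor cortex peak chr6:105195117-105196161 were 1057 and 1045 bp wide and shared 1022 bp, and both were listed as hyperacetylated. A cortical peak of 931 bp just before them, chr6:105194002-105194932, was listed in the same direction, and its SN partner of 764 bp was not. The authors assigned the next listed SN peak, chr6:105234259-105236277 at 114.7 kb from the Fos promoter peak, to Jdp2, a repressor of AP-1. That peak of 2019 bp was listed as hyperacetylated and lay inside a cortical peak of 4686 bp that was not listed.

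**Figure D1:**
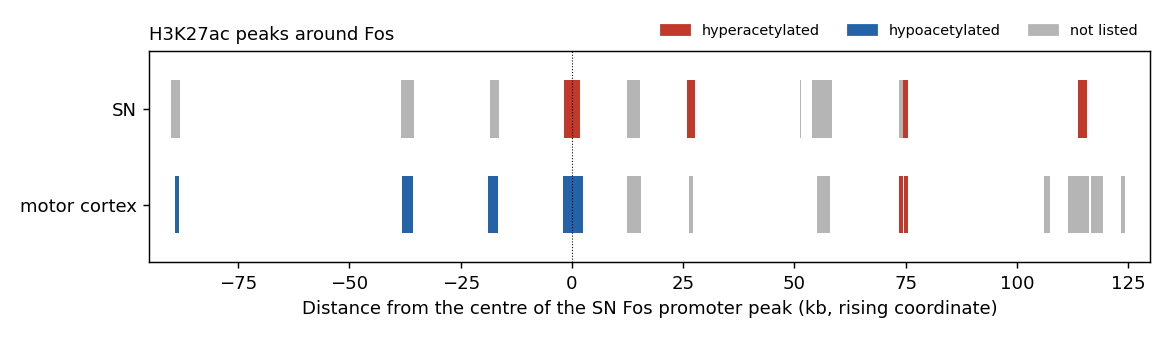
H3K27ac peaks around Fos in the SN (upper row) and motor cortex (lower row), drawn to scale along the distance in kb from the centre of the SN promoter peak, with red for peaks listed as hyperacetylated, blue for hypoacetylated and grey for peaks not listed, whichever gene they were assigned to. The promoter peak at 0 is red in the SN and blue in the motor cortex, the 3 cortical peaks to its left are blue, and near 75 kb both regions show red peaks.

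Junb, the other AP-1 subunit of the set, had 1 listed peak, and it was in the SN. This promoter peak, chr19:23171936-23179293, was 7358 bp wide, wider than 98.6% of SN peaks. The motor cortex peak at the same place, chr19:23171679-23179193, had nearly the same extent at 7515 bp, covered 98.6% of the SN peak and was not listed in either direction. Of the 12 SN peaks within 50 kb, 3 were listed, all as hyperacetylated. The other 2 stand on either side of the Junb peak and were assigned to its neighbours Hook2, an adaptor of microtubule motors, and Prdx2, a peroxiredoxin that removes hydrogen peroxide. The Hook2 peak of 3406 bp ended 728 bp before the Junb peak, and the Prdx2 peak of 5353 bp was centred 12.1 kb after it. None of the 9 motor cortex peaks in the window was listed, although 8 of them had an SN partner.

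Maff was the gene of the set whose promoter was listed as hyperacetylated in both regions. The SN promoter peak, chr7:110911354-110913427, was 2074 bp wide, and the motor cortex peak, chr7:110912355-110913629, was 1275 bp wide. They shared 1073 bp, which is 51.7% of the SN peak and 84.2% of the cortical one, so the SN peak reached further upstream. Both were narrower than the promoter peaks of the other 5 genes in their region, and the cortical one was close to the middle of its list, wider than 51.1% of peaks. The remaining 15 SN peaks within 50 kb were not listed. In the motor cortex, 1 more of the 13 peaks was listed as hyperacetylated, a peak of 4159 bp assigned to Tmem184b and centred 47.1 kb from the SN promoter peak.

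Klf6 had 2 listed SN peaks and 4 listed motor cortex peaks on chromosome 17, and no 2 of them overlapped. The SN promoter peak, chr17:64542834-64549733, was 6900 bp wide and listed as hyperacetylated. It lay over 2 cortical peaks, of 7752 and 1031 bp, that together covered 97.3% of it and were not listed. The second SN peak, chr17:64611302-64613158, of 1857 bp, was also listed as hyperacetylated and lay 65.9 kb upstream of the promoter peak. It was the only listed SN peak of the 6 genes without a cortical partner, and the nearest cortical peak was 19601 bp away.

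The motor cortex showed a different set of sites around Klf6. A peak of 743 bp, chr17:64564652-64565394, was listed as hyperacetylated and lay 18.7 kb upstream of the SN promoter peak, inside an SN peak of 809 bp that was not listed. Upstream of it came 5 cortical peaks in 18.4 kb, from 536 to 1723 bp wide, in a stretch with no SN peak. The 3 cortical peaks listed as hypoacetylated were far away, chr17:64268545-64269339 at 277.3 kb on the downstream side and chr17:64959578-64960538 and chr17:64960698-64961954 at 413.8 and 415.0 kb on the upstream side. They were 795, 961 and 1257 bp wide and were assigned to Klf6 as the nearest start site. The windows around them held 7 and 4 cortical peaks and no SN peak, and the nearest SN peak to any of the 3 was 165508 bp away.

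**Figure D2:**
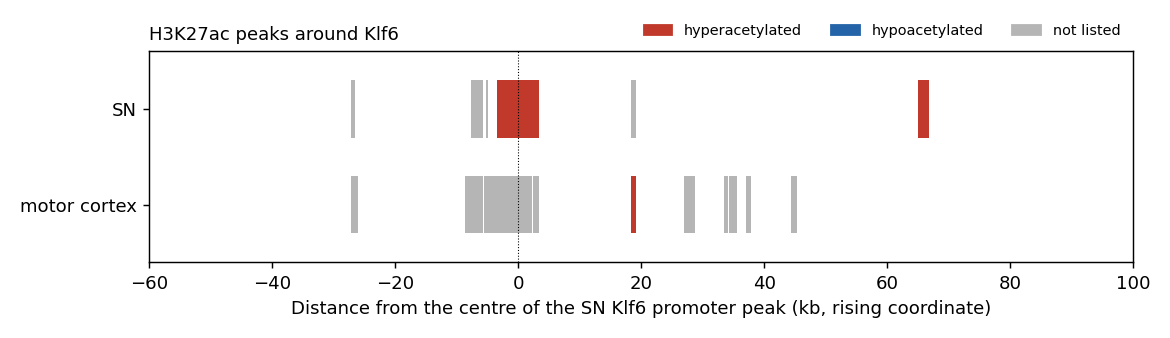
H3K27ac peaks near Klf6 in the SN (upper row) and motor cortex (lower row) along the distance in kb from the centre of the SN promoter peak, with colours for the authors' listing and the gene on the minus strand, so that its upstream side is to the right. The red SN promoter peak faces grey cortical peaks, the 5 grey cortical peaks between 25 and 50 kb face no SN peak, and the red SN peak at 65.9 kb faces no cortical peak. The 3 far cortical peaks listed as hypoacetylated lie outside the plot.

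Nfe2l2 was listed at intronic sites and not at its promoter. The SN peak chr3:60602413-60605059, of 2647 bp, and the motor cortex peak chr3:60602344-60603761, of 1418 bp, shared 1349 bp and were both listed as hyperacetylated. The SN peak covered 95.1% of the cortical one and was 1.87 times as wide. A second intronic cortical peak, chr3:60600159-60601209, of 1051 bp, was listed as hyperacetylated too, inside an SN peak of 2391 bp that was not listed. The peaks at the start site, chr3:60618088-60622791 in the SN and chr3:60618397-60622783 in the motor cortex, were 4704 and 4387 bp wide, the cortical one lying inside the other, and neither was listed. Within 50 kb, Nfe2l2 was the single locus of the 6 with more length under SN peaks than under cortical peaks at every window tried, 18699 against 12006 bp here. All 7 cortical peaks had an SN partner, whereas 4 of the 9 SN peaks, from 228 to 1643 bp wide, had no cortical partner.

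Dusp1 had 2 listed SN peaks and 5 listed motor cortex peaks on chromosome 10, all distal, while its promoter peak was listed in neither region. The widest listed peaks of the set were here. The SN peak chr10:16648997-16658159, of 9163 bp, and the motor cortex peak chr10:16649135-16659749, of 10615 bp, lay 29.0 and 28.1 kb upstream of the centre of the SN promoter peak, shared 9025 bp and were both listed as hyperacetylated. They were wider than 99.1% and 99.2% of the peaks of their lists and wider than the promoter peaks of Dusp1, which measured 7991 bp (chr10:16678562-16686552, SN) and 8918 bp (chr10:16678305-16687222, motor cortex).

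Further upstream of Dusp1, 71.7 kb from the promoter peak, the 2 regions were listed in opposite directions. The SN peak chr10:16610118-16611522, of 1405 bp, was hyperacetylated and lay wholly inside the motor cortex peak chr10:16607972-16614130, of 6159 bp, which was hypoacetylated. Unlike at the Fos promoter, the SN peak filled a small share of the cortical one, 22.8%, so most of the cortical peak lies outside the SN peak. A cortical peak of 1707 bp, chr10:16602591-16604297, close by, was listed as hyperacetylated, so neighbouring cortical sites were listed in both directions. Downstream, 2 small cortical peaks of 619 and 475 bp, chr10:16724020-16724638 and chr10:16724864-16725338, were listed as hyperacetylated over unlisted SN peaks of 652 and 281 bp.

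The stretch from 130 to 50 kb before the Dusp1 promoter peak was covered more fully in the motor cortex than in the SN. Peaks covered 76.8% of it in the motor cortex and 36.6% in the SN, in 17 and 19 peaks. The cortical list had 5 peaks of at least 5 kb there, the widest of 11130 bp, and the SN list had none, the widest being 3873 bp. That widest cortical peak lay over 4 SN peaks, which together covered 43.7% of it. The median widths differed less, 1717 bp in the motor cortex and 1405 bp in the SN. Splits also ran the other way, as SN peaks of 3127 and 3873 bp each lay over 2 cortical peaks. At the far end, a cortical peak of 9264 bp assigned to Atp6v0e1, a subunit of the vacuolar proton pump, was listed as hypoacetylated, and another of 1392 bp assigned to the same gene as hyperacetylated.

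**Figure D3:**
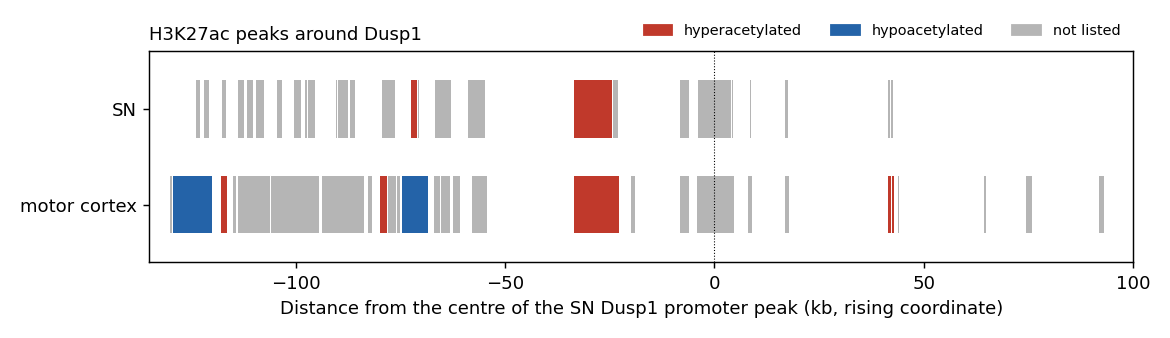
H3K27ac peaks around Dusp1 in the SN (upper row) and motor cortex (lower row), along the distance in kb from the centre of the SN promoter peak, with red for listed as hyperacetylated, blue for hypoacetylated and grey for not listed. Both regions show a wide red peak near -29 kb, and the red SN peak at -71.7 kb stands above a wider blue cortical peak. More than 50 kb to the left, 5 cortical peaks are at least 5 kb wide and no SN peak is.

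Between the regions, 9 of the 10 listed SN peaks and 14 of the 17 listed motor cortex peaks had a partner in the other list. Of all peaks that the authors listed, 81.3% of those of the SN and 61.9% of the cortical ones had a partner. A partner was present for all 10 hyperacetylated cortical peaks and for 4 of the 7 hypoacetylated ones, the 3 without it being the far Klf6 sites. For 3 of the SN peaks and 8 of the cortical peaks, the partner was not listed. The partners that were listed formed 6 pairs, 4 of them hyperacetylated in both regions (Fos downstream, Maff promoter, Nfe2l2 intron and the wide Dusp1 peaks) and 2 in opposite directions (Fos promoter and Dusp1 at 71.7 kb). Over both whole lists, 764 overlapping pairs were listed in both regions, and 13 of them were hyperacetylated in the SN and hypoacetylated in the motor cortex. The Fos and Dusp1 pairs are 2 of these 13, and a further one was assigned to Ier5, another immediate early gene. In that pair the SN peak of 1805 bp faced a cortical peak of 6544 bp. Ier5 is named because it is among the related genes described below. The remaining pairs, most of the 13, were assigned to genes outside the set and the related genes, and several of them share the same SN peak. A peak listed in one region and not in the other is not shown to differ between them, since the difference itself was not tested.

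All 10 listed SN peaks were wider than the SN median, from 1057 to 9163 bp with a median of 2360.5 bp, close to the 2482.5 bp of all SN peaks listed as hyperacetylated. In the motor cortex the 10 hyperacetylated peaks ran from 475 to 10615 bp with a median of 1048 bp, against 1634 bp for all cortical peaks listed in that direction. The 7 hypoacetylated ones ran from 795 to 6159 bp with a median of 2157 bp, against 1734.5 bp. Of the 10 hyperacetylated cortical peaks, 4 were above the median of their list, not far from an even split, and the 10615 bp peak of Dusp1 stood far from the others. Among promoter peaks, listed or not, those of Junb, Klf6 and Dusp1 measured 6900 to 8918 bp in the 2 regions, those of Fos and Nfe2l2 3767 to 4704 bp, and those of Maff 1275 and 2074 bp.

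**Figure D4:**
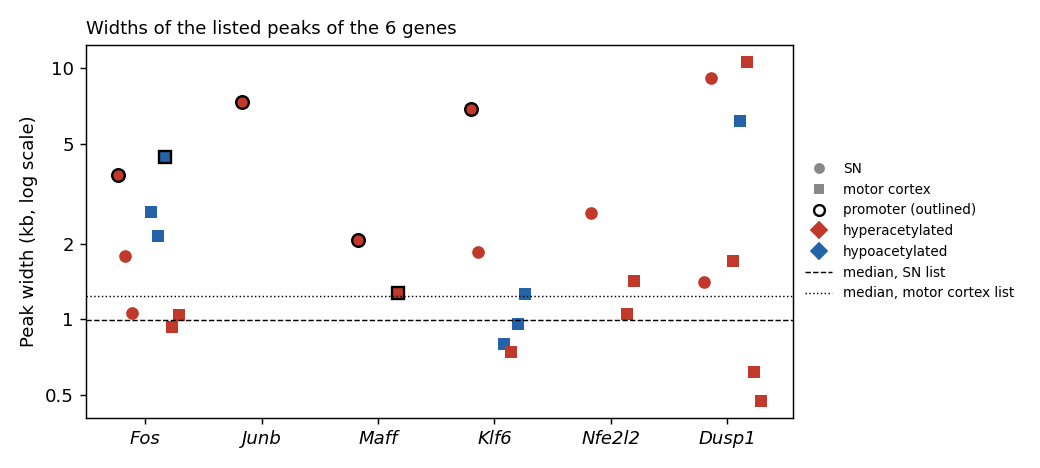
Width in kb on a log scale of each of the 27 listed peaks by gene, with circles for SN, squares for motor cortex, red for hyperacetylated, blue for hypoacetylated and a black outline for promoter peaks. Dashed and dotted lines mark the medians of the SN and motor cortex lists. All 10 circles lie above the SN median of 994 bp, and the Dusp1 pair at 9163 and 10615 bp is the widest.

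Around all 6 genes, within 50 kb of the listed peaks, 82 SN peaks covered 155254 bp and 93 motor cortex peaks covered 212193 bp, a ratio of 1.37 that is close to the 1.39 of the whole lists. The shared length was 85.8% of the SN length and 62.8% of the cortical length, against 73.3% and 52.6% over the whole lists. The loci differed from each other. Around Klf6 the cortical length was 2.15 times that of the SN and around Dusp1 1.74 times, while around Junb it was 1.09 times. The ratio was 1.25 around Fos and 1.12 around Maff, but both fell below 1 with windows of 25 kb, at 0.90 and 0.69, and the Fos ratio also with windows of 100 kb, at 0.96. Around Nfe2l2 it was 0.642. Of the 93 cortical peaks, 33 had no SN partner, a smaller share than the 44.9% of the whole list, and 16 of these were around Klf6 and 12 around Dusp1. Of the 16 around Klf6, 7 and 4 lay in the far windows and 5 in the window of the gene. The far windows were opened by listed cortical peaks without an SN partner, so the selection itself contributes to the Klf6 number. Of the 82 SN peaks, 9 had no cortical partner, also a smaller share than the 34.7% of the whole list.

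**Figure D5:**
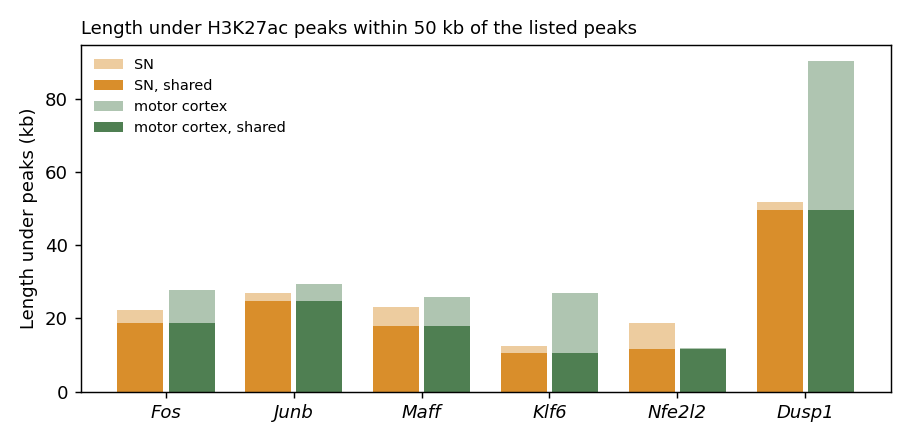
Length in kb under SN (orange) and motor cortex (green) peaks within 50 kb of the listed peaks of each gene, with the dark part of each bar the length shared by both lists. The cortical bar exceeds the SN bar most around Klf6 and Dusp1, and around Nfe2l2 the SN bar is the taller. The Klf6 bars include the windows opened by the far listed cortical sites, which held no SN peak.

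Genes of the same pathways were taken from a list of 56, of which 40 had at least 1 listed peak and 16 had none. In the SN, 12 of the 56 had a hyperacetylated peak and 3 a hypoacetylated one. In the motor cortex, 18 had a hyperacetylated peak and 22 a hypoacetylated one, and 3 of these genes had both. As a background, of 20978 named protein-coding genes in RefSeq, 3.26% had a hyperacetylated and 3.71% a hypoacetylated SN peak, 11.1% a hyperacetylated and 12.3% a hypoacetylated cortical peak, and 23.3% a listed peak of any kind. That background includes genes that are silent in brain, and the cortical lists hold 9227 peaks against 2090 in the SN. The 56 genes and the groups below were drawn up with listings known, so their counts are given as a description beside these shares. They rest on the authors' calls and on their assignment of peaks to the nearest start site.

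Among the other AP-1 family genes, 6 of 9 had a listed peak, where the share over all named genes was 23.3%. Fosb, a close relative of Fos, was hypoacetylated at its promoter in both regions, in overlapping peaks of 931 bp in the SN and 4139 bp in the motor cortex, so its listing differed from that of Fos in the SN. Fosl2 was hyperacetylated at its promoter in the SN, in a peak of 5427 bp, and at a cortical peak of 1913 bp without an SN partner. Jun and Jund had 1 hyperacetylated cortical peak each, of 1158 and 881 bp. Atf3, a stress-induced bZIP repressor, had a hyperacetylated SN peak of 1830 bp and a hypoacetylated cortical peak of 703 bp at another site.

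Of 10 genes grouped here as induced by neuronal activity, 8 had a hypoacetylated cortical peak, against 12.3% of all named genes, 13 peaks in all. None of the 10 had a hyperacetylated peak in either region, where the shares over all named genes were 3.26% for the SN and 11.1% for the cortex. This holds for the grouping used: other early genes that activity can induce had hyperacetylated cortical peaks, with 3 for Ier2, 2 each for Gadd45b and Klf4 and 1 for Jun, and Fos itself had 2. Among the 13 hypoacetylated cortical peaks of the group was the promoter peak of Arc, a regulator of synaptic receptors, at 11511 bp. Others were the promoter peaks of Npas4, an activity-dependent factor, at 10523 bp, and the nuclear receptor Nr4a3, at 9004 bp. Each of these promoter peaks had at least 1 SN partner that was not listed. The remaining peaks were assigned to Egr2, Egr3, Egr4, Nr4a1 and Btg2, and 1 distal peak to Npas4. They include the promoter peaks of Egr4, at 2771 bp, and Btg2, at 2800 bp, which had no SN partner. In the SN, Btg2 was the one gene of this group with a listed peak, a hypoacetylated peak of 2096 bp.

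In the small Maf and NRF2 pathway, 7 of 10 genes had a listed peak, against 23.3% of all named genes, with 3 genes hyperacetylated in the SN, 4 hyperacetylated in the motor cortex and 1 hypoacetylated there. Mafk, a partner of NRF2 like Maff, was hyperacetylated at its promoter in the motor cortex (3568 bp), and Mafg at its promoter in the SN (5743 bp). Among NRF2 targets, Hmox1, the haem-degrading enzyme, had overlapping hyperacetylated peaks of 1294 bp in the SN and 1211 bp in the motor cortex. Nqo1 (2586 bp) and Srxn1 (12120 and 1400 bp) were hyperacetylated at cortical promoter peaks and Txnrd1 at an SN promoter peak (2898 bp). Gclc, of glutathione synthesis, went the other way with 2 hypoacetylated cortical peaks.

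Of the 5 other Klf genes, 4 had hyperacetylated cortical peaks, against 11.1% of all named genes, 16 peaks in all, and 9 of those belonged to Klf9, a glucocorticoid-induced factor. Klf10 was instead hypoacetylated at 2 cortical peaks and hyperacetylated at 1 SN peak. Of the 5 other Dusp genes, 3 had a hypoacetylated cortical peak, against 12.3% of all named genes, with 10 such peaks and 1 hyperacetylated one. Dusp6, the phosphatase of ERK, had 6 of these hypoacetylated peaks and a hypoacetylated SN peak of 925 bp that overlapped one of them. Dusp1 differed from Dusp6 in having hyperacetylated peaks in both regions. Of 11 further genes grouped as stress-induced, 4 had a hyperacetylated and none a hypoacetylated SN peak, against 3.26% and 3.71% of all named genes. In the motor cortex 4 had a hyperacetylated and 4 a hypoacetylated peak, against 11.1% and 12.3%. Gadd45g had 3 hyperacetylated SN peaks, Ier5 had 2 and Sgk1, a glucocorticoid-induced kinase, had 2. The Sgk1 promoter peak of 10373 bp in the SN overlapped a hyperacetylated cortical peak of 10709 bp. Ier5 had 2 hypoacetylated cortical peaks, and Sgk1 had 1 beside 5 hyperacetylated ones.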

How the data were processed

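The authors made H3K27ac ChIP-seq libraries from the SN and motor cortex of 9 rats. Per the labels and methods they used FastQC 0.11.9, Trim Galore 0.6.7, Bowtie2 2.4.4 with mRatBN7.2, Picard 2.6.0, MACS2 2.2.7.1 on merged replicates against pooled input, and featureCounts 2.0.5. The deposited lists hold positions only, so depth per sample is not known here. By the labels, the 5 cortical rotenone libraries had 8 sequencing runs and the 5 SN rotenone libraries had 10. The 4 vehicle libraries of each region had 8. The part of this imbalance in the cortical calls was not tested. The SN list holds more peaks than the study describes, and the filter behind this is not described.

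The authors tested peaks with edgeR at an FDR of 0.05 and assigned genes with ChIPseeker. Gene name, place, distance and direction were taken from a text copy of their lists of differential peaks. Their fold changes, p-values and FDR values were not used, so values near the threshold are not given. Of 11318 rows, 11317 matched a listed peak exactly. Members and lists were chosen with earlier results of these data known, and the motifs, the grouping of related genes and the upstream stretch of Dusp1 after they had been seen. Named genes are the 6 members, other genes listed within 50 kb and the listed genes of the 56.

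Positions count from 1. A width is set against the share of narrower peaks in its list. Start sites follow from the authors' distances. Interval functions, in Python 3.11.15 with numpy 2.4.6, were tested on simulated data.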

Additional observations from a re-analysis of the deposited data

How the results depend on the processing

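Of the 91 alternative values computed, 65 were within 1.5 times the reported one. With a reciprocal overlap of 50%, 7 of the listed SN peaks and 11 of the motor cortex peaks had a partner. When peaks under 1000 bp were dropped, 53 SN and 56 motor cortex peaks were counted around the 6 genes, where fewer peaks remain by construction, and a window of 100 kb raised the motor cortex number to 148. The ratio of cortical to SN length around the 6 genes stayed between 1.18 and 1.37 over the windows and the width minimum tried. Leaving out rats was not possible and no depth limit could be given, because the lists pool the rats and carry no counts. No paired analysis was possible because the pooled lists hold no value per rat.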
